A study of Homo sapiens with 6 samples.

Results

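The 8 genes described here encode the cell surface receptors for Fas ligand and TRAIL, the caspases that start apoptosis, and the protein that restrains caspase-8. They are *FAS*, *TNFRSF10A*, *TNFRSF10B*, *TNFRSF10C*, *TNFRSF10D*, *CASP8*, *CASP9* and *CFLAR*. They were taken by symbol from the 58735 genes of the deposited table, and each symbol was on 1 row. Gene positions below are those of the table, on GRCh38.p14. The study sequenced RNA of TPC-1, a human papillary thyroid carcinoma cell line, to learn how *RRM2* overexpression changes its transcription. *RRM2* encodes a subunit of ribonucleotide reductase, the enzyme that makes deoxyribonucleotides. The control group was wild strain TPC-1 (3 libraries, genotype WT), and the other group was *RRM2*-OE-TPC-1 (3 libraries), into which *RRM2* had been brought by lentiviral infection followed by puromycin selection. No vector or selection is described for the wild strain, so that the effects of infection and selection cannot be told apart from those of *RRM2*. The genotype label of *RRM2*-OE-TPC-1 replicates 2 and 3 reads RRM3 and RRM4, whereas their titles give *RRM2*.

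Death receptors are members of the tumor necrosis factor receptor family with an intracellular death domain. In Fas and the signaling TRAIL receptors this domain recruits the adaptor FADD. FADD in turn gathers caspase-8, which cuts the executioner caspases, while CFLAR (c-FLIP) binds in the same complex and limits the activation of caspase-8. Caspase-9 starts apoptosis from mitochondria instead, on a platform of APAF1 and cytochrome c. Decoy receptors bind the TRAIL ligand without a working death domain, and TRAIL receptors are widely present on carcinoma cells, those of the thyroid included.

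The libraries held 14317091 to 17084067 reads on genes, recovered from the values as whole reads. *RRM2* had 8.92 FPKM on average in the control libraries and 48.4 with *RRM2* overexpression (log2 fold change 2.43, limma adjusted p = 1.11e-08), and no library went against its label. FPKM is fragments per kilobase of gene, scaled by the authors to a depth for each library. Of 7 thyroid markers, *PAX8* (means of 69.3 FPKM in the control and 58.5 under overexpression) and *FOXE1* (4.30 and 3.19 FPKM) were expressed. *TG*, *TSHR* and *SLC5A5* had at most 0.113 FPKM in any library, and *NKX2-1* was at 0 in all 6. The 7 leukocyte markers summed to 0.349 to 0.410 FPKM in TPC-1 and 0.107 to 0.183 in *RRM2*-OE-TPC-1, and 5 of them were at 0 in every library. The 6 endothelial and fibroblast markers summed to 2.97 to 3.32 and 2.38 to 2.60 FPKM, of which *PECAM1* was called lower (means of 0.924 and 0.0588 FPKM, log2 fold change -2.71, limma adjusted p = 2.35e-05) and *PDGFRB* did not pass (2.116 and 2.37 FPKM). The 5 epithelial markers summed to 42.8 to 47.1 and 88.3 to 90.7 FPKM. Of these *KRT18* was called higher (41.2 and 85.2 FPKM, log2 fold change 1.05), *KRT8* was higher on adjusted p alone (2.56 and 3.48 FPKM), *KRT7* did not pass (1.18 and 1.01 FPKM), and *EPCAM* and *KRT19* had at most 0.125 FPKM in any library. The part of these markers in the results below was not tested.

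Genes were tested with limma on log2(FPKM + 0.1), and fold changes on this scale understate the change of genes with low FPKM. The 13621 genes with at least 0.5 FPKM and at least 10 reads in 3 libraries or more were tested. A gene was called when its Benjamini-Hochberg adjusted p was 0.05 or less and its absolute log2 fold change 1 or more, which was so for 11.5% of the tested genes (4.48% higher under overexpression and 6.97% lower). On adjusted p alone 67.6% of the tested genes passed, 34.9% higher and 32.7% lower. Of the 8 genes, *TNFRSF10C* was below the minimum and the other 7 were tested. Called were *FAS* and *TNFRSF10D*, both higher in *RRM2*-OE-TPC-1, and 0 were called lower. On adjusted p alone 5 of 7 passed: *FAS*, *TNFRSF10A*, *TNFRSF10B* and *TNFRSF10D* were higher, and *CFLAR* was lower. *CASP8* and *CASP9* did not pass. The share passing on p alone, 5 of 7, was near that of all tested genes. The median log2 fold change of the 7 genes was 0.39, against 0.011 for all tested genes. The values of the groups did not overlap for any of the 7, which was also so for 72.2% of the tested genes.

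**Figure D1:**
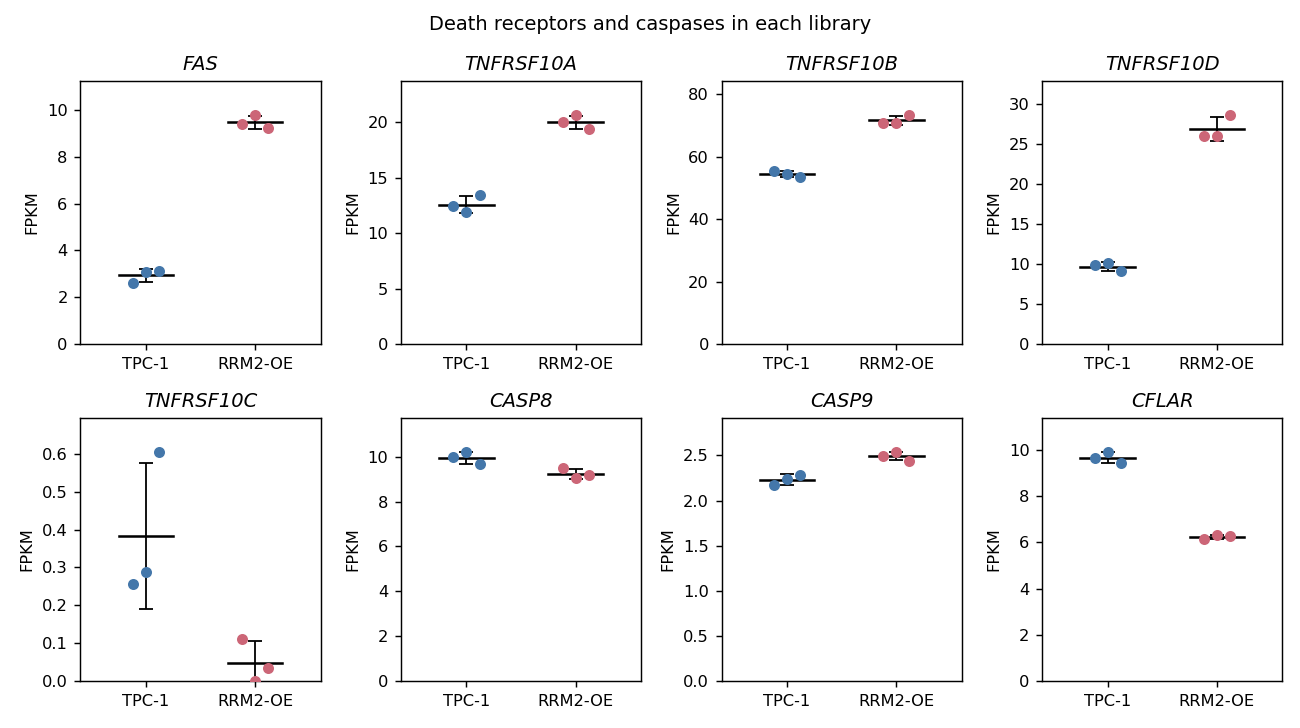
FPKM of each of the 8 genes in the 3 TPC-1 and 3 *RRM2*-OE-TPC-1 libraries, on a separate linear axis from 0 for each gene. Points are libraries, the wide line is the mean and the bars are 1 SD (n = 3). Among the tested genes the ratio of the means is highest for *FAS* and *TNFRSF10D* (3.22 and 2.77 times the TPC-1 mean), and *TNFRSF10C* stays under 1 FPKM in every library.

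The start regions of *FAS*, *CFLAR* and *CASP8* are shown because *FAS* and *CFLAR* moved in opposite directions, and because *CASP8* lies near *CFLAR* on the same strand and did not pass the test. Each run holds the 250 bases before and the 50 after the most upstream RefSeq start on GRCh38.p14, on the plus strand, with matches to any motif searched in capitals. These starts lie downstream of the first base of the gene given below. The whole *CFLAR* run and most of the *FAS* run are therefore within the gene.
FAS chr10:88990548-88990847: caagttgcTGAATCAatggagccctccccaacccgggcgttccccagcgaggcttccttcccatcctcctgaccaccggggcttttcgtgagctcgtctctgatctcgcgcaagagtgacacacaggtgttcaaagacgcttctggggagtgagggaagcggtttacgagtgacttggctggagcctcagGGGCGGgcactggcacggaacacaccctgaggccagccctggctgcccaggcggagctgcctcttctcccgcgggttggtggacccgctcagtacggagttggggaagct
CFLAR chr2:201118466-201118765: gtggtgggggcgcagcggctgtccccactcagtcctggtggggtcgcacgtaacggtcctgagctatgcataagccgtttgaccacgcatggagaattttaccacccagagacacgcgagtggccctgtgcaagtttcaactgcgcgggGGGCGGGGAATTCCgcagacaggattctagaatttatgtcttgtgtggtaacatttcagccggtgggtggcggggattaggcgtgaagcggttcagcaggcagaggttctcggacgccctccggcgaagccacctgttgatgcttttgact
CASP8 chr2:201233213-201233512: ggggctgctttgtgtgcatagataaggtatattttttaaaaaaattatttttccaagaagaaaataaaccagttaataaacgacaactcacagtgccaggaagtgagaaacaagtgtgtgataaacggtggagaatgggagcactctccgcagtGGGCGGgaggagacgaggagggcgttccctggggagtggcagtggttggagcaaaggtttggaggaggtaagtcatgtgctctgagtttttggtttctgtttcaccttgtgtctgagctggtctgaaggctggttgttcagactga
Both strands were searched for TGANTCA (the AP-1 motif), GGGCGG (the GC box bound by SP1), the p53 half-site consensus and the NF-kB consensus. Among 34796 RefSeq start regions of the same length, 7.73% held TGANTCA, 44.9% GGGCGG, 6.65% the p53 half-site and 5.91% the NF-kB consensus. The *FAS* region had TGANTCA at position -242 and GGGCGG at -60 from the start. Its TGANTCA match reads TGAATCA, with A in the middle, and so is not the AP-1 motif itself. The *CFLAR* region had GGGCGG at -101, running into an NF-kB consensus match at -97, so that the capitals there mark both. The *CASP8* region had only GGGCGG, at -96. None of the 3 runs held the p53 half-site, which says no more than that these letters are not in these windows. The most upstream window of *CASP9*, searched in the same way and not shown, held 1 p53 half-site and 9 matches to GGGCGG. Each gene has several RefSeq starts (3 for *FAS* and for *CASP8* and 4 for *CFLAR*), and their other windows differ from those shown. The p53 half-site was in 1 other window of *FAS* and 1 of *CASP8*, TGANTCA in 2 other windows of *CASP8* and 1 of *CFLAR*, and the NF-kB consensus in 1 other window of *FAS*.

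*FAS*, the receptor for Fas ligand, had the largest log2 fold change of the 7 tested genes. *FAS* (ENSG00000026103) lies on chromosome 10 from 88990582 to 89015785 on the plus strand. Its FPKM was 2.62, 3.09 and 3.11 in TPC-1 replicates 1 to 3 and 9.40, 9.76 and 9.21 in *RRM2*-OE-TPC-1 replicates 1 to 3. The 3 *RRM2*-OE-TPC-1 libraries lay close together and well above the highest TPC-1 library. The means were 2.94 ± 0.278 and 9.46 ± 0.279 FPKM (SD, n = 3 each). On the log2 scale the fold change was 1.66 (SE 0.0764, 95% interval 1.48 to 1.83, limma adjusted p = 7.94e-07). Ordered from the largest increase, *FAS* was in place 156 of the 13621 genes tested. These values rest on 186 to 221 reads per TPC-1 library and 578 to 711 per *RRM2*-OE-TPC-1 library. Of the exonic bases of *FAS*, 8.94% (380 of 4253) overlap exons of *ACTA2*, the smooth muscle actin gene on the opposite strand. The counting is not stated to use strand, so reads from these bases cannot be assigned to either gene. *ACTA2* itself had 7 reads in each TPC-1 library and 95 to 148 in *RRM2*-OE-TPC-1. The part of this overlap in the values of *FAS* was not tested.

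*TNFRSF10A* (DR4) and *TNFRSF10B* (DR5) encode the signaling receptors for TRAIL, and both were higher in *RRM2*-OE-TPC-1 by less than the threshold on the fold change. *TNFRSF10A* (ENSG00000104689) lies on chromosome 8 from 23190452 to 23225126 on the minus strand. It had 12.4, 11.9 and 13.4 FPKM in TPC-1 replicates 1 to 3 and 19.97, 20.6 and 19.4 in *RRM2*-OE-TPC-1. The lowest *RRM2*-OE-TPC-1 library was above the highest TPC-1 library, and the means were 12.6 ± 0.764 and 20.002 ± 0.597 FPKM (SD, n = 3 each). On the log2 scale this was a fold change of 0.67 (SE 0.0516, 95% interval 0.55 to 0.79, limma adjusted p = 1.12e-05). On the opposite strand, the exons of *TNFRSF10A-AS1* (mean 5.76 FPKM) cover 7.59% of the exonic bases of *TNFRSF10A* and those of *AC100861.1* (1.57 FPKM) 9.01%, and reads there cannot be assigned without strand.

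*TNFRSF10B* (ENSG00000120889), on the minus strand of chromosome 8 from 23020133 to 23069179, had the highest level of the 8 genes in both groups. Its FPKM was 55.4, 54.6 and 53.6 in TPC-1 replicates 1 to 3, and 71.0, 70.9 and 73.3 in *RRM2*-OE-TPC-1. The spread within each group was small beside the gap between them, with means of 54.6 ± 0.913 and 71.7 ± 1.37 FPKM (SD, n = 3 each). The fold change was, in log2, 0.39 (SE 0.0313, 95% interval 0.32 to 0.47, limma adjusted p = 1.29e-05). Of its exonic bases, 1.299% overlap *RHOBTB2* on the opposite strand.

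*TNFRSF10D* (DcR2) encodes a TRAIL receptor with a truncated death domain, and the 95% interval of its log2 fold change lay above those of both signaling receptors. *TNFRSF10D* (ENSG00000173530) lies on chromosome 8 from 23135588 to 23164030 on the minus strand. Its FPKM was 9.87, 10.2 and 9.10 in TPC-1 replicates 1 to 3 and 26.1, 26.1 and 28.6 in *RRM2*-OE-TPC-1. Every *RRM2*-OE-TPC-1 library was above every TPC-1 library, with means of 9.72 ± 0.560 and 26.9 ± 1.48 FPKM (SD, n = 3 each). This gave, as a log2 fold change, 1.46 (SE 0.0572, 95% interval 1.33 to 1.59, limma adjusted p = 3.49e-07), in place 222 from the largest increase. No exon of another gene overlaps *TNFRSF10D*, and none of its 100-base windows was shared with another gene.

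*TNFRSF10C* (DcR1), a TRAIL receptor anchored in the membrane by a lipid and without a death domain, was barely detected. *TNFRSF10C* (ENSG00000173535) lies on chromosome 8 from 23102590 to 23117437 on the plus strand. It had 0.257, 0.286 and 0.605 FPKM in TPC-1 replicates 1 to 3 and 0.111, 0 and 0.0336 in *RRM2*-OE-TPC-1, from 8, 9 and 18 reads and from 3, 0 and 1 reads. All *RRM2*-OE-TPC-1 libraries lay below the lowest TPC-1 library. Scaled to depth, the 4 reads of *RRM2*-OE-TPC-1 were 0.119 times the 35 reads of TPC-1 (95% Clopper-Pearson interval 0.0307 to 0.333, for counting error only). With no filter on low values its log2 fold change was -1.70 (limma adjusted p = 0.0271). Of its exonic bases, 25.96% are also exons of *AC107959.4* on the same strand, and 28.9% of its 100-base windows occur in other genes, so its value is uncertain.

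The balance of membrane-bound decoy to signaling TRAIL receptors was taken in each library as (*TNFRSF10C* + *TNFRSF10D*) over (*TNFRSF10A* + *TNFRSF10B*), in FPKM. The decoy sum was almost all *TNFRSF10D* (means of 9.72 and 26.9 FPKM), so the ratio mostly restates its change. *TNFRSF10C* was lower under overexpression (0.383 and 0.0482 FPKM). The ratio was 0.149, 0.157 and 0.145 in TPC-1 replicates 1 to 3 and 0.288, 0.285 and 0.309 in *RRM2*-OE-TPC-1. Every *RRM2*-OE-TPC-1 ratio was above every TPC-1 ratio, and the mean log2 ratio was higher by 0.97 (1.95-fold; SD 0.0614 and 0.0640, n = 3 each). An exact two-sided permutation test gave p = 0.1, the smallest that 3 libraries against 3 allow. The direction depended on which decoys were counted: with the secreted decoy *TNFRSF11B* added, a choice made after seeing the data, the ratio was lower in *RRM2*-OE-TPC-1, at 0.413, 0.442 and 0.433 in TPC-1 replicates 1 to 3 and 0.336, 0.335 and 0.362 in *RRM2*-OE-TPC-1. The log2 difference was then -0.32 (0.801-fold, exact two-sided permutation p = 0.1). *TNFRSF10D* made up 11.9% to 13.2% of the summed FPKM of the 4 membrane-bound TRAIL receptors in TPC-1 and 22.2% to 23.6% in *RRM2*-OE-TPC-1. The share of *TNFRSF10B* was 69.9% to 71.1% and 60.3% to 60.6%. The signaling receptors *FAS*, *TNFRSF10A* and *TNFRSF10B* together summed to 69.6 to 70.5 FPKM in TPC-1 and 100.4 to 101.9 in *RRM2*-OE-TPC-1.

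**Figure D2:**
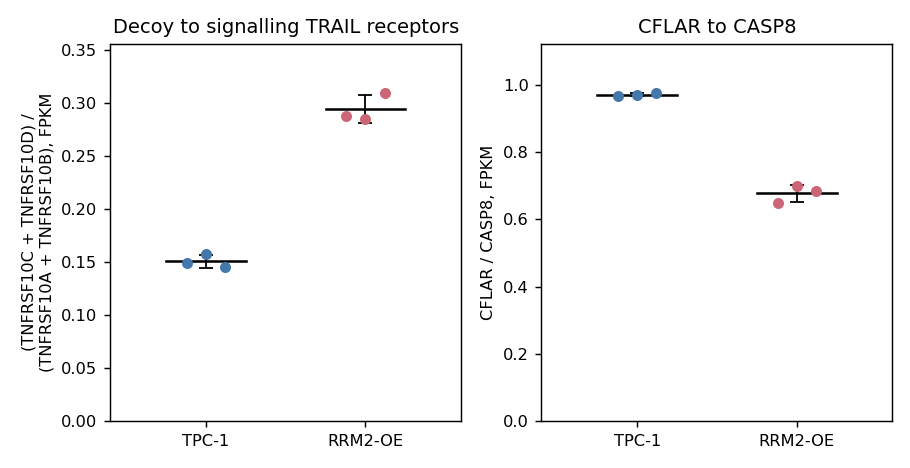
Ratios of FPKM in each library, on linear axes from 0. The ratio of membrane-bound decoy to signaling TRAIL receptors, without *TNFRSF11B*, is on the left and the *CFLAR* to *CASP8* ratio on the right. Points are libraries, the wide line is the mean and the bars are 1 SD (n = 3). The first ratio lies at 0.145 to 0.157 in TPC-1 and 0.285 to 0.309 in *RRM2*-OE-TPC-1, and the second at 0.967 to 0.975 and 0.649 to 0.699.

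*CASP8*, the initiator caspase recruited by death receptors, differed little between the groups. *CASP8* (ENSG00000064012) lies on chromosome 2 from 201233443 to 201287711 on the plus strand. Its FPKM was 10.002, 10.2 and 9.67 in TPC-1 replicates 1 to 3 and 9.49, 9.06 and 9.17 in *RRM2*-OE-TPC-1. The lowest TPC-1 library was just above the highest *RRM2*-OE-TPC-1 library, with means of 9.96 ± 0.275 and 9.24 ± 0.221 FPKM (SD, n = 3 each). On the log2 scale this was a fold change of -0.11 (SE 0.0442, 95% interval -0.21 to -0.0055) and did not pass the test (limma adjusted p = 0.0597). Over 14 alternatives its adjusted p lay between 0.00422 and 0.163. It passed 0.05 when scaled to library totals (limma adjusted p = 0.0119) and with voom on the recovered reads (0.00422), with log2 fold changes of -0.16 and -0.17. No exon of another gene overlaps *CASP8*.

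*CASP9*, the initiator caspase of the mitochondrial pathway, also did not pass. *CASP9* (ENSG00000132906) lies on chromosome 1 from 15490832 to 15526534 on the minus strand. It had 2.17, 2.23 and 2.29 FPKM in TPC-1 replicates 1 to 3 and 2.49, 2.54 and 2.44 in *RRM2*-OE-TPC-1. The lowest *RRM2*-OE-TPC-1 library was above the highest TPC-1 library, with means of 2.23 ± 0.0573 and 2.49 ± 0.0477 FPKM (SD, n = 3 each). On the log2 scale its fold change was 0.15 (SE 0.0751, 95% interval -0.021 to 0.33, limma adjusted p = 0.104), and its adjusted p was above 0.05 under all 14 alternatives (0.0879 to 0.364). Exons of *CELA2B* on the opposite strand cover 2.01% of its exonic bases.

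*CFLAR*, the inhibitor of caspase-8 in the receptor complex, was the only one of the 7 tested genes to pass lower on adjusted p. *CFLAR* (ENSG00000003402) lies on chromosome 2 from 201116104 to 201176687 on the plus strand, near *CASP8*. Its FPKM was 9.67, 9.92 and 9.43 in TPC-1 replicates 1 to 3 and 6.15, 6.33 and 6.27 in *RRM2*-OE-TPC-1. Every *RRM2*-OE-TPC-1 library lay well below the lowest TPC-1 library, with means of 9.67 ± 0.244 and 6.25 ± 0.0902 FPKM (SD, n = 3 each). The fold change was, in log2, -0.62 (SE 0.0452, 95% interval -0.73 to -0.52, limma adjusted p = 7.98e-06), short of the threshold on the fold change. Of its exonic bases, 6.61% overlap the pseudogene *IMPDH1P10* and 3.45% *CFLAR-AS1*, both on the opposite strand and at under 1 FPKM. The table does not separate the long and short isoforms of c-FLIP. The joined exons of *CFLAR* span 22529 bases, the longest of the 8 genes, so that its level per length counts reads over many bases that a given transcript may not hold.

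The ratio of *CFLAR* to *CASP8* in FPKM was 0.967, 0.971 and 0.975 in TPC-1 replicates 1 to 3 and 0.649, 0.699 and 0.683 in *RRM2*-OE-TPC-1. The groups did not overlap, and the mean log2 ratio was lower in *RRM2*-OE-TPC-1, with a difference of -0.52 (0.697-fold; SD 0.00655 and 0.0552, n = 3 each). The exact two-sided permutation test again gave p = 0.1, the smallest possible. Because gene length cancels between the groups, this change does not depend on the length of *CFLAR*, whereas the ratio itself does.

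**Figure D3:**
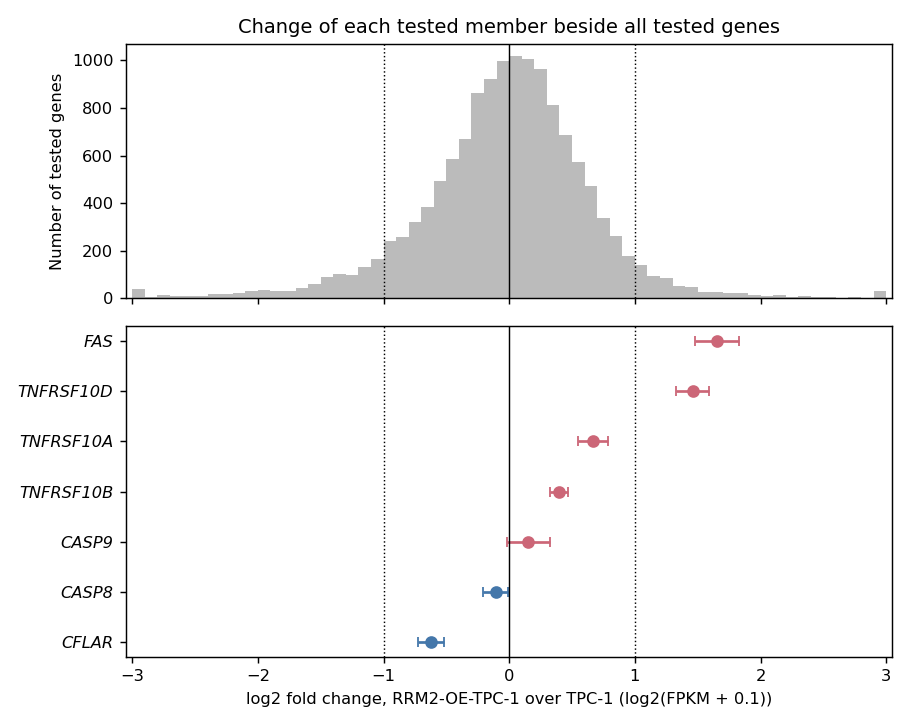
Log2 fold change of *RRM2*-OE-TPC-1 over TPC-1 on the log2(FPKM + 0.1) scale. The upper panel is a histogram of all 13621 tested genes, with values beyond the axis in the end bins, and the lower panel gives the 7 tested genes with 95% intervals. Dotted lines mark the threshold of 1 in each direction. *FAS* (1.66) and *TNFRSF10D* (1.46) lie beyond it, and the intervals of *TNFRSF10A*, *TNFRSF10B*, *CFLAR* and *CASP8* lie between it and 0. That of *CASP8* reaches to -0.0055, and that of *CASP9* includes 0.

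In FPKM, a level per length, *TNFRSF10B* was first of the 8 in both groups, and *CASP9* and *TNFRSF10C* were the last. In TPC-1 the order was *TNFRSF10B*, *TNFRSF10A*, *CASP8*, *TNFRSF10D*, *CFLAR*, *FAS*, *CASP9* and *TNFRSF10C*. The libraries of *CASP8* and *TNFRSF10D* overlapped there, as did those of *TNFRSF10D* and *CFLAR*. In *RRM2*-OE-TPC-1 the order was *TNFRSF10B*, *TNFRSF10D*, *TNFRSF10A*, *FAS*, *CASP8*, *CFLAR*, *CASP9* and *TNFRSF10C*, with an overlap between *FAS* and *CASP8*. The place of *CFLAR* rests on its 22529 joined bases and is uncertain for that reason. *FAS* stood below *CASP8* in level in TPC-1 and beside it in *RRM2*-OE-TPC-1.

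A list of 51 further genes of the pathway was read in the same fit. Of these 33 were tested and 18 were below the minimum, 6 of them at 0 in every library. Called were 3 genes, 1 higher and 2 lower, against the 11.5% of all tested genes. On adjusted p alone 26 passed, 20 higher and 6 lower, and 7 did not, beside 67.6% for all tested genes. Their median log2 fold change was 0.32, and it was 0.011 over all tested genes.

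The ligands were close to absent. All 5 ligand genes, among them *FASLG* (Fas ligand) and *TNFSF10* (TRAIL), were below the minimum, and together they summed to 0.0171 to 0.262 FPKM in TPC-1 and 0.161 to 0.354 in *RRM2*-OE-TPC-1. The mean of *FASLG* was 0.0876 and 0.0863 FPKM, and that of *LTA* (lymphotoxin alpha) 0.0120 and 0.0984 FPKM.

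Among the other receptors with a death domain, 3 of 5 were tested and they moved in both directions. *TNFRSF1A*, the main receptor for tumor necrosis factor, fell from 72.5 ± 3.96 FPKM (77.1, 70.2 and 70.1) to 32.8 FPKM (32.0, 32.6 and 33.9), a log2 fold change of -1.14 (SE 0.0458, limma adjusted p = 4.07e-07). *TNFRSF21* (DR6) had 3.10, 3.01 and 3.23 FPKM in TPC-1 and 8.18, 8.93 and 8.22 in *RRM2*-OE-TPC-1, and it rose by a log2 fold change of 1.41 (SE 0.0612, limma adjusted p = 5.90e-07). *TNFRSF25* (DR3) was lower, from 1.80 to 1.10 FPKM on average, by a log2 fold change of -0.67 (limma adjusted p = 0.00473), and 8.94% of its exonic bases overlap *ESPN* on the opposite strand. In TPC-1 *TNFRSF1A* was above *TNFRSF10B* in every library, and in *RRM2*-OE-TPC-1 it was below it in every library. *TNFRSF11B* (osteoprotegerin), a secreted decoy that binds TRAIL and RANK ligand, had 17.9, 19.0 and 19.3 FPKM in TPC-1 and 4.36, 4.56 and 4.93 in *RRM2*-OE-TPC-1. Its log2 fold change was -1.999 (SE 0.0579, limma adjusted p = 9.25e-08), opposite in direction to *TNFRSF10D*. The other secreted decoy, *TNFRSF6B*, was listed at 0 in every library, but all its exonic bases are also exons of the readthrough gene *RTEL1-TNFRSF6B*, so that its reads may not have been assigned.

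Of the adaptors and regulators of the receptor complex, 11 of 12 were tested, and 5 were higher and 1 lower on adjusted p, 54.5% in all against 67.6% of all tested genes. *PEA15*, a death effector domain protein that binds FADD and caspase-8, had the highest level, at 83.8 and 161.7 FPKM on average. Its log2 fold change was 0.95 (limma adjusted p = 4.96e-07), just short of the threshold. *TRAF2*, a ubiquitin ligase of the receptor complex, went from 11.3 to 18.0 FPKM (log2 fold change 0.67, limma adjusted p = 5.07e-05). *FADD*, the adaptor that both Fas and the TRAIL receptors use, went from 9.79 ± 0.302 to 12.3 ± 1.34 FPKM (SD, n = 3 each), by a log2 fold change of 0.32 (limma adjusted p = 0.00561). *RIPK1* had 14.8 and 14.2 FPKM and did not pass (log2 fold change -0.063, limma adjusted p = 0.245).

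Of the other caspases, the executioner *CASP6* was higher on adjusted p, from 6.96 to 10.6 FPKM on average (log2 fold change 0.60, limma adjusted p = 3.21e-04). Of the other initiators, *CASP2* went from 5.31 to 8.78 FPKM (log2 fold change 0.71, limma adjusted p = 5.24e-06). *CASP10*, the close relative of *CASP8*, was below the minimum with means of 0.123 and 0.0543 FPKM. *CASP4*, an inflammatory caspase, was lower (log2 fold change -0.37, limma adjusted p = 0.00207). *CASP1* was below the minimum, with means of 0.518 and 0.343 FPKM.

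Both partners of caspase-9 were higher on adjusted p. *CYCS* (cytochrome c) had 26.4, 25.6 and 24.99 FPKM in TPC-1 and 44.7, 45.6 and 46.3 in *RRM2*-OE-TPC-1, a log2 fold change of 0.82 (limma adjusted p = 4.98e-07). *APAF1* went from 4.20 to 5.81 FPKM (log2 fold change 0.46, limma adjusted p = 0.00345). In the inhibitor of apoptosis family 5 of 7 genes were tested, with 4 higher and 1 lower on adjusted p (34.9% and 32.7% of all tested genes). *BIRC5* (survivin) had 20.6 and 33.4 FPKM (log2 fold change 0.70) and *BIRC2* 15.1 and 18.0 FPKM (0.25), while *XIAP*, the inhibitor of caspase-9 and the executioners, was lower (-0.30, limma adjusted p = 0.00157). *HTRA2*, which counters this family, did not pass (log2 fold change -0.18, limma adjusted p = 0.0757). *DIABLO*, which acts likewise, is on 2 rows that share exons. The row with more reads had means of 0.351 and 0.417 FPKM and was not tested, and its value is uncertain. Of 4 caspase substrates, 3 were higher on adjusted p, and 67.6% of all tested genes passed in either direction. *PARP1* went from 35.3 to 58.9 FPKM (log2 fold change 0.74), and *DFFA*, the inhibitor of the apoptotic nuclease, did not pass (0.025, limma adjusted p = 0.594). *MLKL*, the effector of necroptosis, had 0.594 and 0.983 FPKM (log2 fold change 0.63, limma adjusted p = 0.0105), and *RIPK3*, the kinase that activates it, was listed at 0 in every library. Exons of genes on the opposite strand cover 20.8% (*LOXL3*, at a mean of 0.447 FPKM) and 16.1% (*AUP1*, 28.1 FPKM) of the exonic bases of *HTRA2*, 54.9% of *FADD* (*AP000879.1*, listed at 0), 9.48% of *APAF1* (*ANKS1B*), 6.59% of *PEA15* and 5.40% of *CASP6*, among others, and these values are uncertain.

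**Figure D4:**
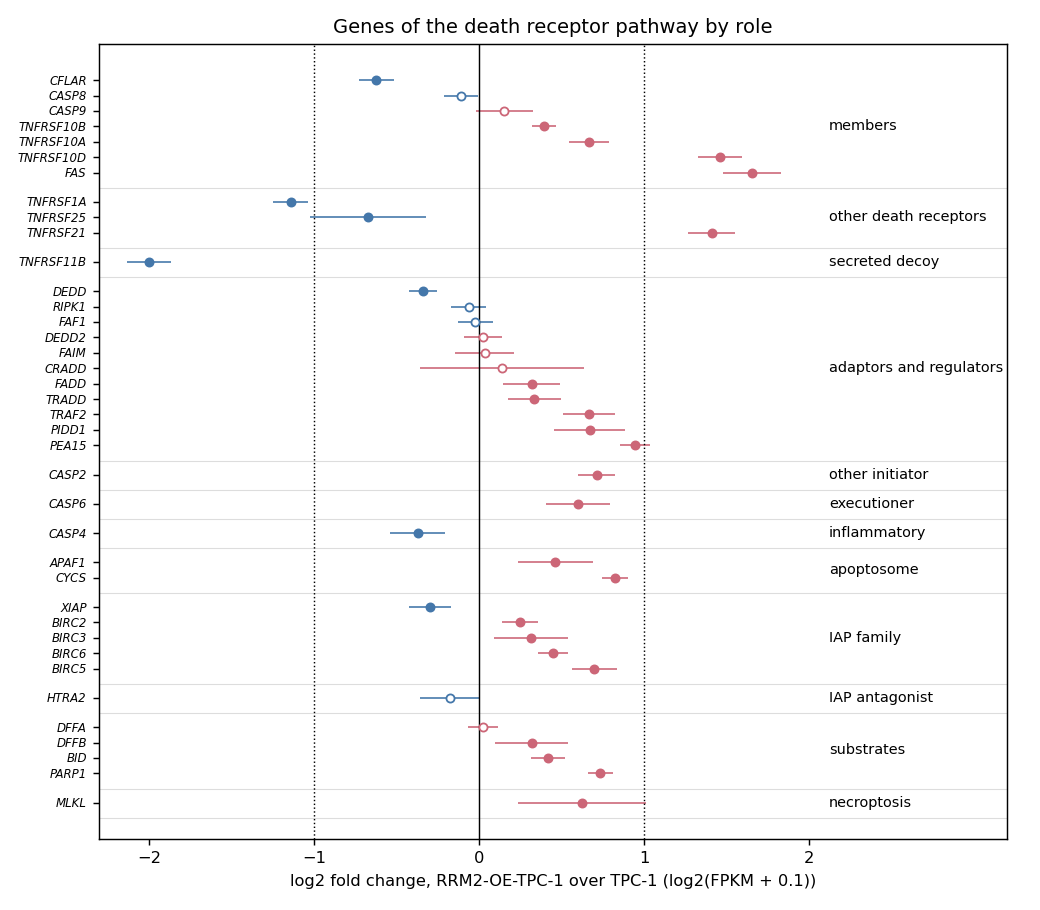
Log2 fold change of *RRM2*-OE-TPC-1 over TPC-1 with 95% intervals for the 7 tested genes of the 8 (labelled members) and for tested genes of the rest of the pathway that are reported here, grouped by role. Filled points passed an adjusted p of 0.05 (limma), open points did not, and dotted lines mark the threshold of 1 in each direction. *FAS*, *TNFRSF10D* and *TNFRSF21* lie beyond it on the right, and *TNFRSF1A* and *TNFRSF11B* on the left.

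The TNFRSF10 genes lie together within 205 kb of chromosome 8, and *CFLAR* and *CASP8* within 172 kb of chromosome 2, so their neighbors were read as well. Within 500 kb of the TNFRSF10 genes, 18 other genes were tested, 0 of them called (11.5% of all tested genes), with 10 higher and 2 lower on adjusted p from limma (67.6% of all tested genes in either direction). The lowest log2 fold change among them was -0.84 (*SLC25A37*) and the median 0.32, and that of *TNFRSF10D* (1.46) was above all of them. Around *CFLAR* and *CASP8*, 11 other genes were tested, and 1 was called (*BZW1*, 1.07), with 4 higher and 3 lower on adjusted p, near the 11.5% and 67.6% of all tested genes. Their median was -0.010 and the lowest was -0.30, so that *CFLAR* (-0.62) lay below all of them. *SLC25A37* and *BZW1* were chosen after their values were seen.

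**Figure D5:**
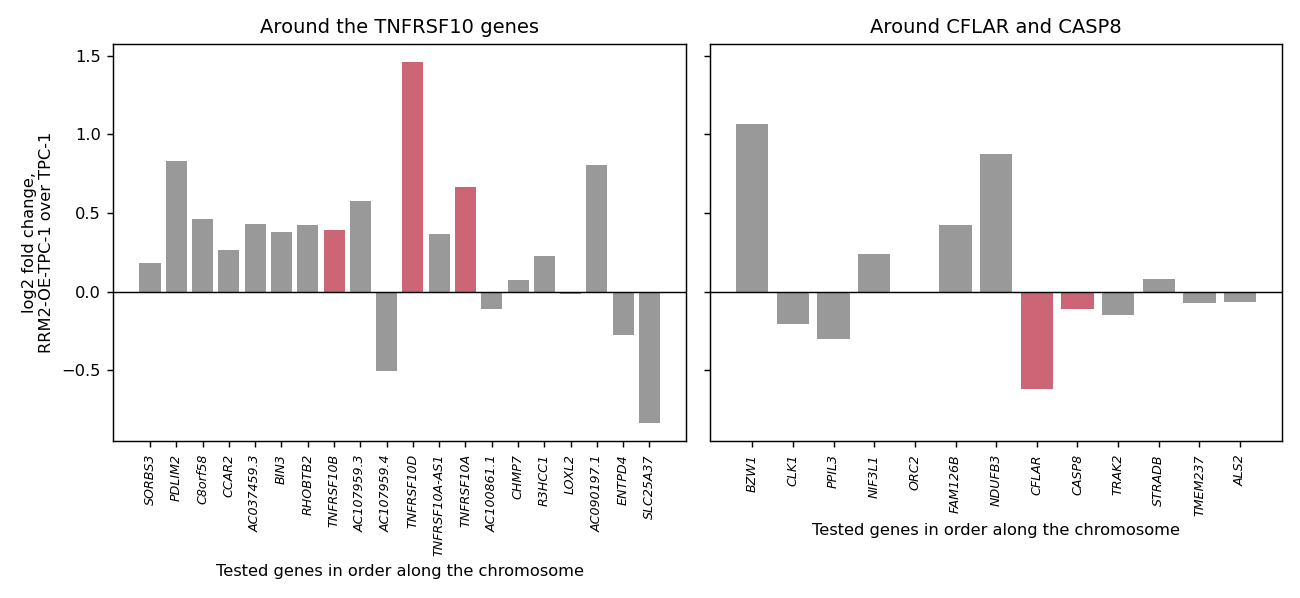
Log2 fold change of *RRM2*-OE-TPC-1 over TPC-1 for tested genes reported here within 500 kb of the TNFRSF10 genes (left) and of *CFLAR* and *CASP8* (right), in their order along the chromosome. Colored bars are the genes described here and grey bars their neighbors. *TNFRSF10D* has the highest bar on the left and *CFLAR* the lowest on the right.

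The tested genes whose pattern over the 6 libraries was most like that of *FAS*, by the Euclidean distance between centered log2(FPKM + 0.1) values, were *MAMDC2* (distance 0.105), *SUGCT* (0.141) and *CDC25A* (0.157), with log2 fold changes of 1.64, 1.69 and 1.59. For *TNFRSF10B* they were *ALG11* (0.0283), *SETD7* (0.0392) and *SMAD3* (0.0432), with log2 fold changes of 0.42, 0.41 and 0.40. This distance mostly follows the difference between the groups, so similar fold changes result from the measure. Shared regulation was not tested.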

How the data were processed

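RNA was sequenced in 3 libraries of wild strain TPC-1 and 3 of *RRM2*-OE-TPC-1. The methods describe poly(A) selection, whereas according to the labels ribosomal RNA was depleted and linear RNA digested with RNase R. That enzyme degrades linear RNA, so if it was used the FPKM values would not measure the whole mRNA, and which protocol applied could not be settled. The authors cleaned reads with fastp, aligned them with HISAT2 2.0.5 and counted them per gene with featureCounts 1.5.0. Per the labels' processing notes the build was GRCh38.p14 and DESeq2 1.20.0 was used for the authors' comparison. The authors deposited FPKM, described as counts divided by gene length and depth. The depth recovered from the values was 1.03 to 1.05 times the reads on genes in the TPC-1 libraries. In *RRM2*-OE-TPC-1 it was 0.997 to 1.01 times, so it may not be the plain number of mapped reads. All 58735 gene identifiers and positions matched GENCODE 29. Labels and methods both describe a directional library kit, but use of strand in counting is not given in the sources used here. The design text calls the libraries biological triplicates, and no source used here describes separate cultures, so p-values measure the spread between these libraries.

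Times gene length, 100.0% of values were whole multiples of 1 read (within 0.01 reads), which gave 14317091 to 17084067 reads on genes per library. The authors' scaling was kept. Scaled to library totals instead, the median log2 fold change of all tested genes was -0.046, against 0.011. R 4.3.3 with limma 3.58.1 (lmFit, eBayes with trend) was run on log2(FPKM + 0.1) over all 13621 genes past the minimum, and Benjamini-Hochberg adjustment was over all of them. Ratios were tested with exact permutation tests. Python 3.11.15, pandas 2.3.3, matplotlib 3.10.9, scipy 1.17.1 and numpy 2.4.6 were used. Start regions came from a set of RefSeq starts that held 4 of the 8 genes. The set used here is not all of RefSeq, and it had no entry for the TNFRSF10 genes. The procedure was also run on simulated data with few or no changed genes. That differs from these data, where 67.6% of tested genes passed on adjusted p, and its outcome is not reported here. Alternatives were other pseudocounts, filters and scalings, voom, the replicate number as a block, adjusted p alone, and leaving out each library.

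The 8 genes and the lists were chosen with earlier results of these data known. Named are all 8, *RRM2*, each called pathway gene, the 2 genes of highest mean FPKM in each list, and the 3 genes most like *FAS* and *TNFRSF10B*. Some genes that this rule covers are not reported here. Other genes were named after their values were seen.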

Additional observations from a re-analysis of the deposited data

How the results depend on the processing

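In the fits that each left out 1 library, with pseudocounts of 1 and 0.01, with the FPKM minimum alone, with library totals, median-of-ratios factors and voom on recovered reads, all 7 tested genes kept their direction and their call on both thresholds together. In each of these fits 2 of the 7 and 3 other pathway genes were called, beside 716 to 1793 of the 13155 to 14997 genes tested. On adjusted p alone *CASP8* also passed with library totals and with voom. Without the threshold on the fold change, 5 of the 7 and 26 of the other pathway genes passed, beside 67.6% of all tested genes. Without a filter on low values, *TNFRSF10C* was called as well. Log2 fold changes over 14 alternatives ran from 1.41 to 1.70 for *FAS*, 1.38 to 1.50 for *TNFRSF10D*, 0.61 to 0.71 for *TNFRSF10A*, 0.34 to 0.41 for *TNFRSF10B*, -0.69 to -0.56 for *CFLAR*, -0.17 to -0.090 for *CASP8* and 0.097 to 0.17 for *CASP9*. With the secreted decoy *TNFRSF11B* among the decoys, which was chosen after seeing the data, the decoy to signaling ratio reversed, from a log2 difference of 0.97 to -0.32, because *TNFRSF11B* fell. Leaving out single libraries, the log2 difference was 0.93 to 1.00 for the decoy to signaling ratio and -0.54 to -0.49 for the *CFLAR* to *CASP8* ratio. Over all tested genes, 716 were called with a pseudocount of 1 and 2281 with no filter, against 1560.

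Replicate numbers did not pair the libraries: same-numbered libraries of the groups correlated by -0.011, -0.0060 and -0.055 in their deviations from the group means (other pairs -0.048 to 0.061). With the replicate number as a block, 1566 genes were called, 2 of the 8 genes and 3 other pathway genes among them, and the log2 fold changes stay as they were by construction. Depth limits *TNFRSF10C*, with 18 reads or fewer in a library, and the ligands.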

Other observations

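Around *FAS*, 9 other genes within 500 kb were tested, with 6 higher and 0 lower on adjusted p from limma, against 67.6% of all tested genes passing in either direction and 11.5% called. Called were *ACTA2* (log2 fold change 3.42), whose exons overlap those of *FAS*, and the interferon-induced genes *IFIT3* (1.57) and *IFIT1* (1.23). Around *CASP9*, 13 other genes were tested, with 4 higher and 4 lower, and 1 was called (*EFHD2*, 1.47), near the same shares. These genes were chosen after their values were seen.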
